A study of Mus musculus with 18 samples.

Results

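Elf5, Cdx2, Eomes, Hand1 and Tfap2c are transcription factor genes of the trophoblast, the lineage that forms the placenta. Their CpG methylation was followed in 18 libraries of mouse embryonic stem (ES) cells. The CpGs used lie in each gene of the GENCODE M21 annotation or within 5 kb of it and had at least 1 read in all 18 libraries. By this rule 1241 CpGs were kept, of 6143659 CpGs that met the same read minimum across the genome. They comprise 162 CpGs at Elf5, 243 at Cdx2, 308 at Eomes, 221 at Hand1 and 307 at Tfap2c. Of the 594 CpGs listed for the Elf5 window 27.3% were kept, against 50.9% to 59.5% in the other 4 windows. A level is the number of methylated reads divided by all reads, summed over the CpGs of a region in 1 library and given in percent. Differences between levels are given in percentage points.

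Every group descends from ES cells without their own Dnmt1, the enzyme that copies CpG methylation onto newly made DNA. The cells carry the pPyCAGIP vector with wild-type (WT) DNMT1 or with DNMT1 in which tryptophans are replaced by alanine, and they were kept under puromycin selection. Beside WT there are 2 single mutants, W465A and W796A, 2 double mutants, W464A/W465A and W465A/W796A, and the triple mutant W464A/W465A/W796A. Each group has 3 libraries. The tryptophans W464 and W465 lie in the RFTS domain of DNMT1, and W796 lies in the first of its BAH domains. Several stable lines were made for each group. The labels call the libraries of a group biological replicates without saying whether each is its own line, so p-values measure the spread between these libraries. DNMT1 in these lines comes from a transgene, and the knockout itself, carrying the vector alone, is not analysed here. The assay measures methylation only, so markers of the ES cell state could not be checked at the level of RNA.

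Enhanced reduced representation bisulfite sequencing cuts the genome with restriction enzymes and reads unmethylated cytosines as converted bases. Between 59776439 and 138978763 CpG calls were made per library. In the 5 windows the median kept CpG had 5 to 33 reads per library, with Elf5 the thinnest at 5 to 12. Over 773437 tested 1 kb tiles of the genome, the mean level was 71.0% ± 8.28 (SD, n = 3) in WT, 71.6% ± 12.4 in W796A, 50.6% ± 4.0 in W465A/W796A, 30.2% ± 6.31 in W465A, 22.1% ± 3.13 in W464A/W465A and 21.4% ± 2.42 in W464A/W465A/W796A. These values are the background for all the comparisons that follow.

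The ETS factor ELF5 is placed at the centre of the barrier between the embryonic and trophoblast lineages. Its promoter is known to be methylated and silent in ES cells and unmethylated in trophoblast stem cells, where ELF5 acts with CDX2 and EOMES to keep the trophoblast fate. CDX2 is the caudal homeobox factor that specifies trophectoderm, EOMES is a T-box factor needed for trophoblast stem cells, TFAP2C (AP-2 gamma) is an early trophoblast activator, and HAND1 is a bHLH factor needed for trophoblast giant cells.

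The upstream sequences of Elf5, Hand1 and Cdx2 are shown. The measured promoter CpGs were partly methylated in WT at Elf5 and Hand1 and almost unmethylated at Cdx2. They were read from the GRCm38 reference in the direction of each gene, with CpGs in capitals. The Elf5 run is chr2:103411438-103411687 on the plus strand, the 250 bases before the 5′-most start (transcript Elf5-206), with 2 CpGs. Neither CpG had reads in all libraries, so no level is given for this run and the measured Elf5 promoter CpGs lie outside it. The Hand1 run is chr11:57832819-57833068 on the minus strand, with 11 CpGs of which 6 were measured. The Cdx2 run is chr5:147307271-147307520 on the minus strand, with 11 CpGs of which 10 were measured.
Elf5, before the 5′-most start: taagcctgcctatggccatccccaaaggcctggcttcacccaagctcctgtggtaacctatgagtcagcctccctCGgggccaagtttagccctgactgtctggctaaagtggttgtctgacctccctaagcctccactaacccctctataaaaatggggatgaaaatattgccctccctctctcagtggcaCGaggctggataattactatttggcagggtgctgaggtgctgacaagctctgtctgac
Hand1: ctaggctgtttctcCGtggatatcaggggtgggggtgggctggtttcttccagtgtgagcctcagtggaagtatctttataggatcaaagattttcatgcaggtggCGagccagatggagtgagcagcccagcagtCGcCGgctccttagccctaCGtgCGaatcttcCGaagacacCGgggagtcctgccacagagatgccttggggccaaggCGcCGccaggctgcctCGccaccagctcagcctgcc
Cdx2: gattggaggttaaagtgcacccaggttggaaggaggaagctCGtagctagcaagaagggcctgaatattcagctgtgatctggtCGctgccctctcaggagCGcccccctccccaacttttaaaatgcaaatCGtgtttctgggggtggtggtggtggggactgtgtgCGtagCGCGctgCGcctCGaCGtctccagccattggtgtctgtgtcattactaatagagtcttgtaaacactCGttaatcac

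Promoters were taken as 500 bp on either side of every annotated start of a protein-coding transcript. Elf5 held 19.5 CpGs per kb of promoter and Hand1 32.3, whereas Cdx2 held 56.9, Tfap2c 77.3 and Eomes 78.8. The 2 CpG-poorer promoters were partly methylated in WT cells, and the 3 denser ones were nearly free of methylation in every group. Among 17297 tested promoters of the genome the pooled WT level of Elf5 stood at the 82.5th percentile and that of Hand1 at the 76.9th, followed by Tfap2c at the 32.5th, Eomes at the 23.1st and Cdx2 at the 21.0th.

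The Elf5 promoter lost methylation in the W465A, W464A/W465A and W464A/W465A/W796A cells. Its 11 kept CpGs, of 54 listed, carried 65 to 207 reads per library. Transcripts Elf5-201 and Elf5-207 had 28 and 27 listed CpGs within 500 bp of their starts, but each start had only 2 kept ones. The promoter level therefore says little about these starts. In WT the levels were 32.9%, 62.8% and 41.9%, and in W796A they were 23.0%, 64.5% and 46.9%. Both groups spread widely and overlapped each other. The W465A libraries stood at 27.9%, 23.3% and 34.9%, so that the highest W465A library lay above the lowest WT library. In W464A/W465A the levels were 22.5%, 28.1% and 25.9%, all below WT. The triple mutant W464A/W465A/W796A had the lowest levels, 18.8%, 20.2% and 16.8%, below every WT and W465A library. The W465A/W796A levels, 50.8%, 56.9% and 34.4%, fell within the WT range.

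With a quasi-binomial model over all promoters, the pooled Elf5 level was 22.8 points lower in W465A than in WT (Benjamini-Hochberg adjusted p = 0.0273), where the call required an adjusted p under 0.05 and at least 10 points. It fell by 25.5 points in W464A/W465A (adjusted p = 0.0129) and by 32.9 points in the triple mutant (adjusted p = 0.0028). Elf5 and Hand1 were the 2 of 5 promoters called lower in each of these 3 comparisons, where the genome-wide share of promoters called lower was 27.3%, 29.1% and 29.3%. No member promoter was called in W465A/W796A, where 6.6% of all promoters were lower, nor in W796A, where 0.00578% were lower and 0.0752% higher, nor between W465A/W796A and W465A, where 2.34% were higher. Without WT replicate 2, the most methylated WT library at this promoter, none of the 3 Elf5 calls remained: the differences were -9.07 points in W465A, -11.8 in W464A/W465A and -19.2 in the triple mutant, with adjusted p of 0.469, 0.309 and 0.085. For the Elf5 promoter, W465A vs WT, the call was also lost without W465A replicate 1 or replicate 2, at differences of -22.3 and -20.3 points.

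The Elf5 promoter was not evenly methylated. The 4 CpGs just inside the 5′-most start, 72 to 216 bp downstream of it, were the better covered ones and had 40.0%, 83.7% and 76.5% methylation in the WT libraries. In W465A/W796A they stood at 74.1%, 74.4% and 64.7%, all above the W465A libraries at 40.6%, 36.9% and 44.6%. In W464A/W465A they stood at 26.3%, 38.5% and 27.3% and in the triple mutant at 22.6%, 24.4% and 32.4%. The 7 CpGs around the Elf5-203 start were lower in WT, at 19.2%, 46.1% and 22.0%, and the W465A and W464A/W465A libraries overlapped them.

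**Figure D1:**
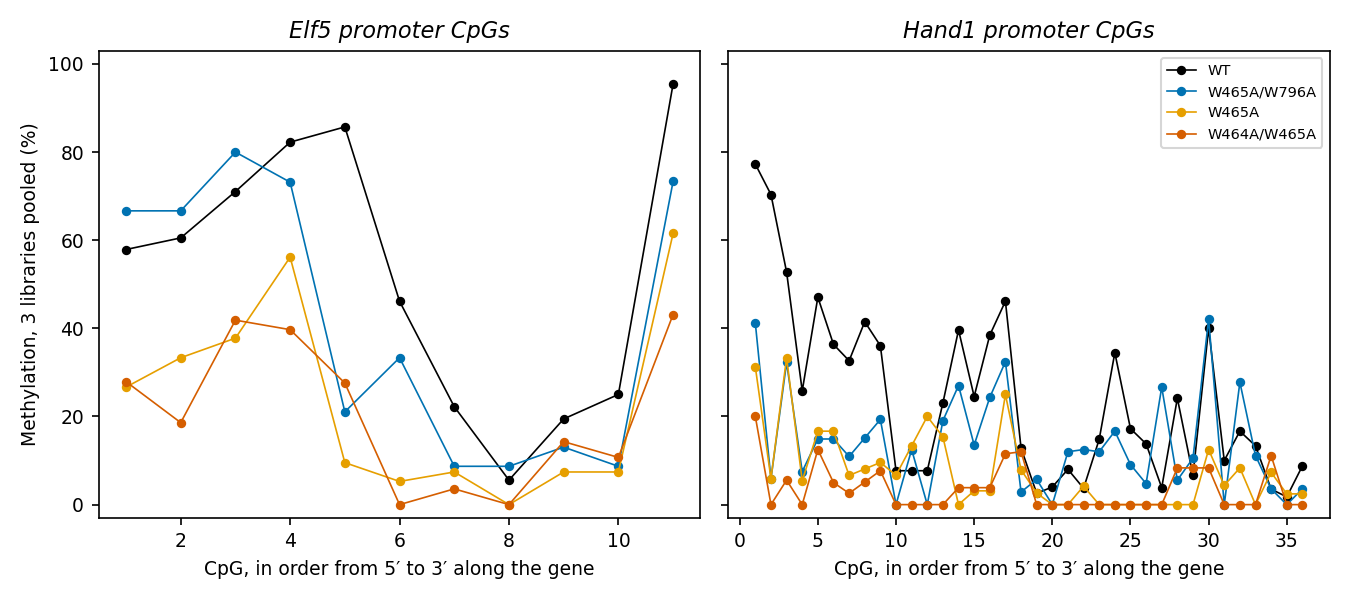
Methylation of single CpGs in the promoters of Elf5 (left, 11 CpGs) and Hand1 (right, 36 CpGs), in percent of the reads of 3 pooled libraries, with CpGs in 5′ to 3′ order on the horizontal axis and 4 groups as coloured lines. The first 4 Elf5 CpGs lie just inside the 5′-most start, where W465A/W796A lies between 66.7% and 80% and W465A between 26.7% and 56.2%.

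The 1 kb tile that holds the 4 CpGs of the 5′-most start, chr2:103411001-103412000, had 5 kept CpGs and 42 to 127 reads per library. Its levels were 47.6%, 84.4% and 78.6% in WT, 37.9%, 32.9% and 38.4% in W465A, and 66.2%, 68.1% and 56.9% in W465A/W796A. The tile was called lower than WT in W465A (36.6 points of pooled difference, adjusted p = 0.0019) and its W465A/W796A libraries all lay above those of W465A, but that difference of 27.5 points missed the threshold (adjusted p = 0.0645). The next tile, chr2:103412001-103413000, held 83.9% ± 9.73 in WT and 31.1% ± 10.5 in W465A, on 3 CpGs. Tile chr2:103424001-103425000, over the internal starts, was the lowest of the gene, at 21.9% in WT and 5.49% in W465A. Tile chr2:103425001-103426000 held 84.8% in WT, 40.2% in W465A and 34.0% in W464A/W465A. All 4 promoter tiles of Elf5 were called lower in W465A, in W464A/W465A and in the triple mutant, as were 90.6%, 94.3% and 94.9% of all tiles. Without WT replicate 2 the tile over the internal starts lost all 3 calls, at -10.2, -5.37 and -12.4 points (adjusted p = 0.159, 0.489 and 0.071), and the tile at the 5′-most start lost its W465A call at -23.5 points (0.0707). The internal tile's W464A/W465A call was also lost with limma and without W464A/W465A replicate 1 or 2.

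The Elf5 gene body, 121 CpGs outside the promoters, was strongly methylated in WT, at 66.4%, 73.2% and 74.5%. W796A gave 62.0%, 84.2% and 75.0%, on both sides of WT. The body held 39.6%, 28.9% and 27.0% in W465A, 23.8%, 29.1% and 25.9% in W464A/W465A, and 22.4%, 26.8% and 19.9% in the triple mutant. W465A/W796A took a middle place, at 54.7%, 53.3% and 49.8%, below every WT library and above every W465A library. The body was called lower than WT in W465A (adjusted p = 2.61e-05), W464A/W465A (3.6e-06), the triple mutant (1.95e-06) and W465A/W796A (0.0167), and higher in W465A/W796A than in W465A by 21.3 points (adjusted p = 0.0108). The last call was lost in 5 of 27 alternatives (adjusted p up to 0.138), among them without W465A replicate 3 or W465A/W796A replicate 1. That of W465A/W796A against WT was lost in 4 of 27 (adjusted p up to 0.172), among them without WT replicate 2 or W465A/W796A replicate 2 or 3. As a mean, the W465A body kept 44.6% of the WT level and the W465A/W796A body 73.7%, against 40.3% and 71.6% for the mean over 19417 gene bodies. The most methylated tile of the Elf5 window in WT, chr2:103454001-103455000, had 90.8% in WT, 51.4% in W465A and 40.0% in W464A/W465A. The largest loss in W464A/W465A was in tile chr2:103438001-103439000, which went from 77.6% in WT to 14.1%, while W465A/W796A held 68.1%.

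**Figure D2:**
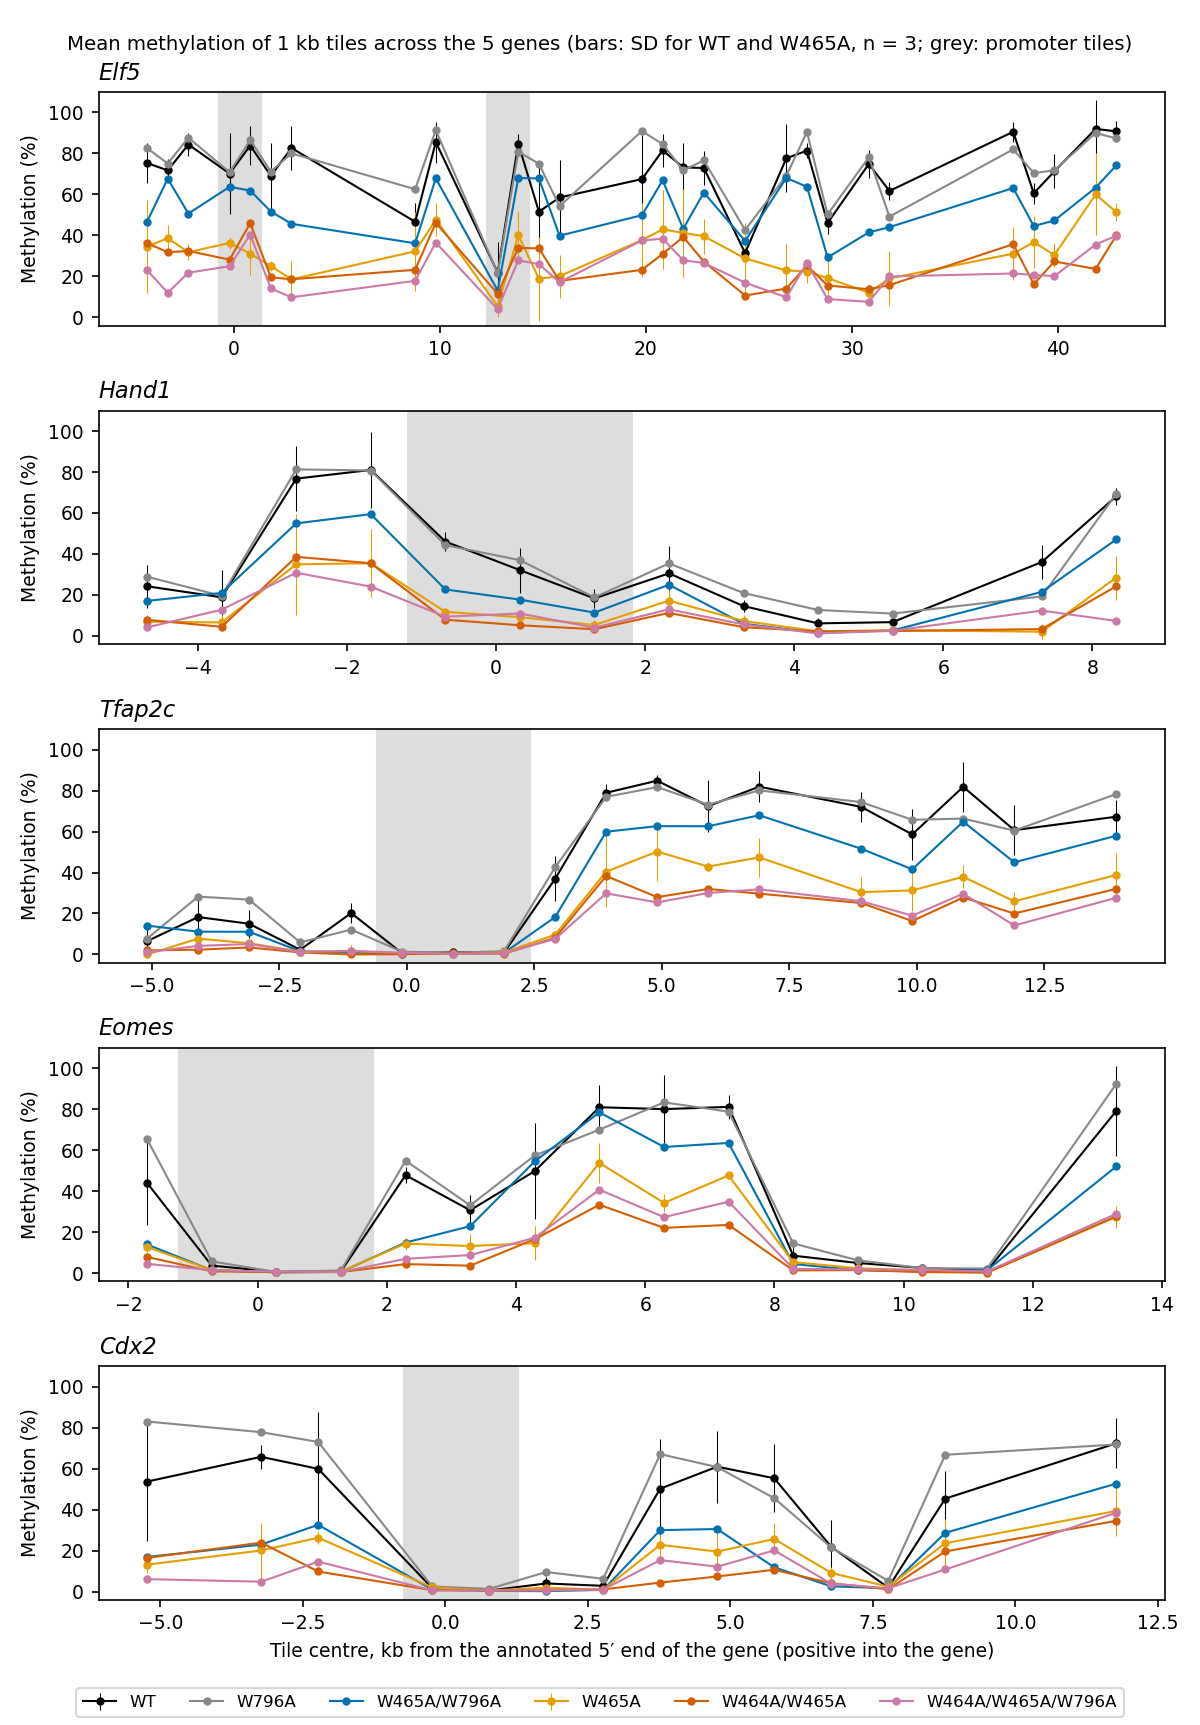
Mean methylation of each 1 kb tile (percent, vertical axis) against its distance in kb from the annotated 5′ end of the gene, with 1 panel per gene, 1 line per group and promoter tiles shaded. Bars show the SD over 3 libraries for WT and W465A. Elf5 has its lowest WT tile, 21.9%, over the internal starts, Hand1 has promoter tiles down to 18.3%, and the promoter tiles of Cdx2, Eomes and Tfap2c lie under 4%.

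Hand1 was the other member whose promoter carried methylation in WT, over 36 CpGs and 240 to 923 reads per library. The WT libraries stood at 15.4%, 31.5% and 31.5%, and W796A at 26.4%, 39.3% and 29.8%. The levels were 8.57%, 7.13% and 8.10% in W465A, 2.90%, 3.48% and 7.54% in W464A/W465A, and 9.86%, 7.92% and 9.64% in the triple mutant, all under the lowest WT library. W465A/W796A ranged from 8.06% to 22.7% and overlapped both WT and W465A. The promoter fell by 18.7 points in W465A (adjusted p = 0.00081), by 22.1 points in W464A/W465A (0.0003) and by 17.2 points in the triple mutant (0.00186), while the difference of -12.3 points in W465A/W796A missed the threshold (adjusted p = 0.0617). Hand1 promoter, W465A/W796A vs WT, was called in 6 of 31 alternatives (adjusted p down to 0.00599), among them the replicate block (0.0496), wider promoters, the 5′ end only and the set without W796A replicate 1 or 2. It ranged from -17.3 points without WT replicate 1 to -6.57 without WT replicate 2.

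The Hand1 promoter was more methylated at its 5′ start than at its internal one. The 17 CpGs around that start averaged 35.7% ± 11.3 in WT, and the 21 CpGs around the internal start at base 57832147 averaged 13.1% ± 8.77. Within the printed sequence, the CpG at base 107 of the run held 47.1% over the pooled WT reads, 16.7% in W465A and 12.5% in W464A/W465A, on 6 to 44 reads per library. The CpG 19 bp before the start (base 231) held 36.1%, 9.56% and 7.69%, on 17 to 74 reads. Promoter tile chr11:57833001-57834000 was at 41.3%, 50.2% and 46.7% in WT, at 11.7%, 12.1% and 11.4% in W465A and at 16.5%, 25.4% and 26.3% in W465A/W796A. It was the only 1 of the 15 member promoter tiles called higher in W465A/W796A than in W465A (adjusted p = 0.0438), against 20.1% of all tiles. The call was lost without W465A replicate 3, without W465A/W796A replicate 1 and with limma. The other promoter tiles, chr11:57832001-57833000 and chr11:57831001-57832000, had 32.1% and 18.3% in WT and 9.20% and 5.38% in W465A. Each was called lower, as were 90.6% of all tiles. Tile chr11:57834001-57835000, just beyond, held the highest WT level of the window and its largest loss, from 81.0% in WT to 35.5% in both W465A and W464A/W465A.

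The Hand1 body, 65 CpGs, held 16.5%, 22.1% and 21.7% in WT, 8.12%, 5.12% and 9.34% in W465A, 2.98%, 6.15% and 5.15% in W464A/W465A, and 9.52%, 10.5% and 13.0% in W465A/W796A. It was called lower than WT in W465A (adjusted p = 3.95e-05), W464A/W465A (4.21e-06) and the triple mutant (3.74e-06). With 10 reads per CpG these calls were lost: Hand1 body, W465A vs WT, stood at -1.17 points, Hand1 body, W464A/W465A vs WT, at -8.32 and Hand1 body, W464A/W465A/W796A vs WT, at -7.72 (adjusted p = 0.895, 0.217 and 0.233). With 5 reads those of W465A and the triple mutant were under 10 points, at -8.11 and -9.10. Higher read minimums leave fewer CpGs, so a smaller part of the body is compared, whose WT level is not given here. The W465A/W796A body lay 9.80 points below WT, just under the 10-point minimum, at an adjusted p of 0.0166. Hand1 lies on chromosome 11, whose CpG calls amounted to 7.51% to 11.6% of those on the other autosomes (chromosome 8 left out). The share was highest in 2 WT libraries, in 2 of W465A/W796A and in 1 of the triple mutant, and its part in the Hand1 levels was not tested.

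The promoters of Cdx2, Eomes and Tfap2c had almost no methylation in any library. Over 44 CpGs and 654 to 1773 reads, Cdx2 ranged from 0% to 0.996% in WT and from 0.142% to 1.73% in the mutants. The 0% came from WT replicate 1, and 3 counts of the reads set a limit between 0.169% and 0.459% in WT libraries. Eomes, 110 CpGs and 1423 to 4048 reads, ranged from 0.469% to 0.903% in WT and from 0.162% to 1.23% in the mutants. Tfap2c, 115 CpGs and 1345 to 3584 reads, ranged from 0.492% to 1.34% in WT and from 0.149% to 1.40% in the mutants. At Tfap2c the W464A/W465A libraries, 0.323% to 0.420%, lay below WT by 0.626 points (adjusted p = 0.0272), far under the 10-point minimum. None of the 8 promoter tiles of these 3 genes was called in any comparison. At levels this low, a loss of 10 points is not possible.

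**Figure D3:**
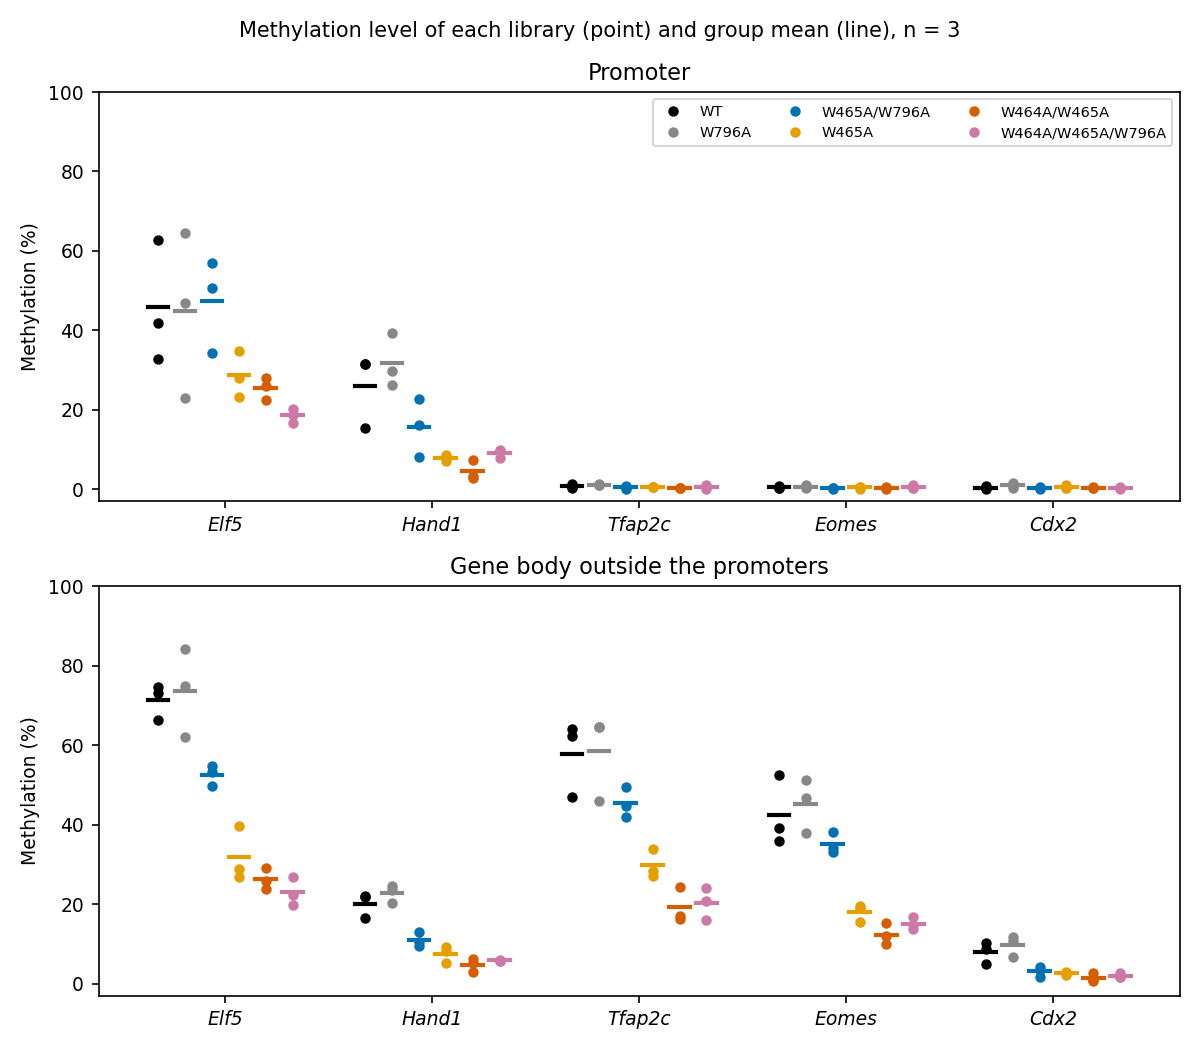
Methylation in percent of each library (points) and group means (lines) for the promoters (top) and gene bodies (bottom) of the 5 genes, with n = 3 per group. At the promoters, Elf5 and Hand1 carry methylation and Tfap2c, Eomes and Cdx2 stay under 2% in every library.

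The Tfap2c and Eomes bodies were methylated in WT and lost methylation in W465A, W464A/W465A and the triple mutant. The Tfap2c body, 71 CpGs, was at 47.1%, 62.4% and 64.1% in WT, at 33.8%, 27.1% and 28.4% in W465A, at 16.9%, 24.3% and 16.4% in W464A/W465A, and at 44.6%, 49.6% and 42.0% in W465A/W796A. It fell by 29.1 points in W465A (adjusted p = 0.000129), by 39.3 points in W464A/W465A (7.51e-06) and by 38.2 points in the triple mutant (7.09e-06), and was 15.8 points higher in W465A/W796A than in W465A (adjusted p = 0.0227). The Eomes body, 74 CpGs, was at 35.9%, 52.4% and 39.1% in WT, at 19.4%, 15.5% and 19.1% in W465A, at 15.2%, 12% and 10% in W464A/W465A, and at 34.2%, 38.3% and 33.2% in W465A/W796A. It fell by 27.2 points in W465A (adjusted p = 2.79e-05), by 33.1 points in W464A/W465A (3.65e-06) and by 30.5 points in the triple mutant (4.51e-06), and was 16.6 points higher in W465A/W796A than in W465A (0.0108). The calls between W465A/W796A and W465A were lost in 5 of 28 alternatives for Tfap2c (adjusted p up to 0.0751) and in 6 of 28 for Eomes (up to 0.802), both without W465A replicate 3 or W465A/W796A replicate 1, and Tfap2c also without replicate 2 of either group. At CpGs with 10 reads or more, all 4 Eomes calls just given were lost: Eomes body, W465A vs WT, was at -1.47, Eomes body, W464A/W465A vs WT, at -2.01, Eomes body, W464A/W465A/W796A vs WT, at -1.63 and Eomes body, W465A/W796A vs W465A, at 0.380 points. This minimum leaves fewer CpGs, so a smaller part of the body is compared. The WT level of that part is not given here. Eomes in W465A/W796A was also called 10.6 points lower than WT (adjusted p = 0.0476), a call that was lost in 20 of 28 alternative settings and stood at 2.52 points lower without WT replicate 2.

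The Cdx2 body was the least methylated of the 5, at 5.05%, 8.79% and 10.3% in WT over 124 CpGs. All libraries of W465A (2.22% to 3.06%), W464A/W465A (0.657% to 2.64%), W465A/W796A (1.81% to 4.13%) and the triple mutant (1.64% to 2.62%) lay below the lowest WT library. The pooled differences from WT were -5.70, -6.81, -5.42 and -6.33 points, with adjusted p of 0.000872, 0.000135, 0.0166 and 0.000202. The pooled WT level was 8.29%, so a loss of 10 points was not possible and none of these differences could be called. Counting the bodies together, 4 of 5 were called lower in W465A, W464A/W465A and the triple mutant, against 95.3%, 96.1% and 96.2% of all gene bodies. The uncalled body in these comparisons was that of Cdx2, which could not be called lower. In W465A/W796A 2 of 5 were called lower than WT, against 70.6%, and 3 of 5 were higher than in W465A, against 75.1%.

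The 5 windows held 88 tested tiles. Of these, 63 were called lower in W465A (71.6%), 66 in W464A/W465A (75%) and 67 in the triple mutant (76.1%), where 90.6%, 94.3% and 94.9% of all tiles of the genome were called lower. In W465A/W796A 19 tiles (21.6%) were called lower than WT, against 29.8% of all tiles. None was called higher than WT in any mutant, against 0.000388% of all tiles in W465A/W796A. The median difference over the 88 tiles was -30.6 points in W465A against -43.6 over all tiles, and -37.9 against -52.4 in W464A/W465A. Of 42 tiles with over 20 listed CpGs, a division chosen after the values were seen, 18 were under 10% in pooled WT and the median was 19.5%, whereas 46 tiles with at most 20 listed CpGs had a median of 72.9%. Of those 46, 1 was under 10% in pooled WT, and 41 were called lower in W465A, 43 in W464A/W465A and 44 in the triple mutant. Among the 42 denser tiles, the counts in the same order were 22, 23 and 23. A tile under 10% in WT cannot fall by 10 points, so it could not be called lower. The share of such tiles over the genome was not counted. The W465A/W796A count depended on single libraries, with 0 tiles when WT replicate 2 was left out and 33 when WT replicate 1 was. Leaving out WT replicate 3 gave 11, leaving out W796A replicate 1 gave 31, and leaving out each W465A/W796A library gave 7, 9 and 8.

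Methylation was higher when W796A was present beside W465A, by 10.5 points in the median member tile. Of the 88 tiles, 11 (12.5%) were called higher in W465A/W796A than in W465A and none lower, against 20.1% of all tiles called higher and 0.000776% called lower. The 11 were spread as 6 of 28 tiles at Elf5, 2 of 18 at Tfap2c, 2 of 15 at Eomes, 1 of 13 at Hand1 and 0 of 14 at Cdx2. This count ranged from 0 to 21 when 1 library was left out, reaching 0 for W465A replicate 3 or W465A/W796A replicate 1. Leaving out W465A replicate 2 gave 2, W465A/W796A replicate 2 gave 4, and any of W465A/W796A replicate 3, W464A/W465A replicate 3 and triple-mutant replicate 1 gave 7. Leaving out W796A replicate 1 gave 21 and its replicate 2 gave 18. In 32 of the 88 tiles all W465A/W796A libraries lay above all W465A libraries, a relation that held for 47.5% of the tiles of the genome. The 32 comprised 13 tiles at Elf5, 7 at Tfap2c, 7 at Hand1, 5 at Eomes and 0 at Cdx2.

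The Cdx2 values were the lowest in this comparison. Its median tile difference between W465A/W796A and W465A was -0.331 points, against 22.8 at Elf5, 12 at Tfap2c, 10.2 at Hand1, 0.753 at Eomes and 21 over all tiles. In 2 Cdx2 tiles the W465A/W796A libraries were all below those of W465A, which held for 0.157% of all tiles, although neither was called, and both are named after their values were seen. One was chr5:147305001-147306000, with 1.82%, 2.53% and 1.31% in W465A and at most 0.322% in each W465A/W796A library (adjusted p = 0.0583), and the other chr5:147300001-147301000. The levels of the first are near the floor, and only 1 of the 14 Cdx2 tiles had an unadjusted p under 0.05 in this comparison. To compare the genes over like sequence, levels were also summed over tiles with at most 20 listed CpGs. Elf5 went from 39.0%, 25.5% and 27.1% in W465A to 54.4%, 50.6% and 50.1% in W465A/W796A. Eomes means went from 26.8% to 51.1%, Tfap2c from 33.9% to 50.7% and Hand1 from 18% to 33.6%, without overlap of the libraries. Cdx2 had 26.8%, 21.4% and 21.6% in W465A and 23.6%, 30.6% and 33.0% in W465A/W796A, and these overlapped (exact two-sided permutation p = 0.2, n = 3 each). Relative to Elf5 in the same library, Cdx2 stood at 77.5% in W465A and 56.6% in W465A/W796A, with no overlap. The same ratio overlapped between these groups for Eomes, Hand1 and Tfap2c. Elf5 itself rose by 21.2 points between these groups and Cdx2 by 5.79, so the lower Cdx2 ratio follows from levels already given. The ratio and the division of tiles were both chosen after the values were seen. They describe these libraries only, and no p-value is given for the ratio.

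Tiles with and without a difference between W465A/W796A and W465A lay close together at Eomes. Tiles chr9:118476001-118477000 and chr9:118480001-118481000, on either side of the CpG-dense promoter and picked after their values were seen, averaged 43.9% and 47.7% in WT, 12.6% and 14.3% in W465A, and 13.9% and 14.8% in W465A/W796A. Tile chr9:118482001-118483000, 2 kb further into the gene and likewise picked after its values were seen, had 20.8%, 5% and 17.9% in W465A and 69.2%, 46.2% and 48.1% in W465A/W796A (adjusted p = 0.0118). The tile with the highest WT level, chr9:118483001-118484000, averaged 80.9% in WT, 53.7% in W465A and 78.4% in W465A/W796A. The tile with the largest loss in W464A/W465A, chr9:118485001-118486000, averaged 81.0% in WT, 23.5% in W464A/W465A and 63.4% in W465A/W796A. At Tfap2c, tile chr2:172554001-172555000 had both the highest WT level, 84.8%, and the largest loss, to 28.0% in W464A/W465A. At Cdx2 the most methylated tile, chr5:147295001-147296000, averaged 72.3% in WT, 39.3% in W465A and 52.6% in W465A/W796A, and chr5:147302001-147303000, with the largest loss, averaged 60.9% in WT, 7.35% in W464A/W465A and 30.5% in W465A/W796A.

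**Figure D4:**
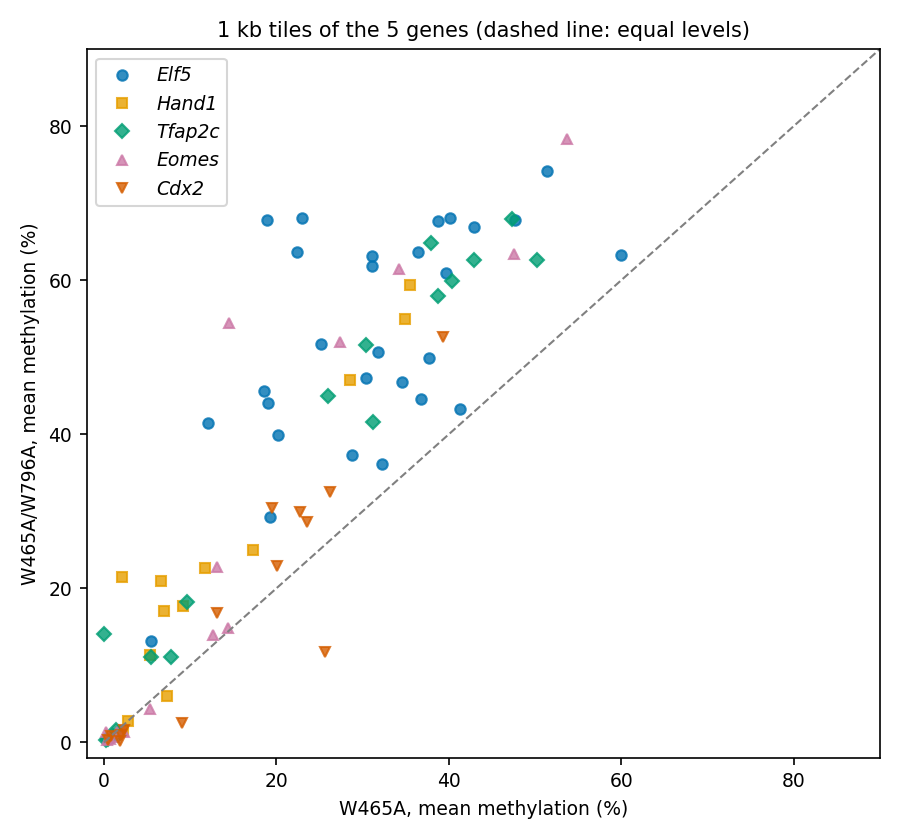
Mean methylation (percent) of the 88 tiles in W465A (horizontal axis) and W465A/W796A (vertical axis), with a marker for each gene and a dashed line at equal levels. Most Elf5, Tfap2c and Hand1 tiles lie above the line, and the Cdx2 tiles lie on both sides of it, from 25.6% against 11.8% to 39.3% against 52.6%.

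No member tile was called between W796A alone and WT. Of all tiles 0.000646% were called lower and 0.00478% higher. Without adjustment, 13 of the 88 had a p under 0.05, 6 of them at Cdx2. The share of all tiles at that unadjusted threshold was not counted, so the 13 have no background beside them. In 9 of the 88 tiles every W796A library lay above every WT library, against 2.16% of all tiles, and in 1 every W796A library lay below, against 1.2%. Of the 9, 3 were Cdx2 tiles with pooled levels that stayed under 10%. At Tfap2c, a tile chosen after its values were seen, chr2:172546001-172547000, averaged 15.0% in WT and 26.8% in W796A (unadjusted p = 0.00124, adjusted p = 0.575). Adding W464A to W465A, or W796A to W464A/W465A, gave no call in the member tiles by the quasi-binomial test. In either of these comparisons 0% of all tiles was called. At an unadjusted p under 0.05 there were 9 and 2 of 88, again without a count over all tiles. In the direction of loss, 16 of 88 tiles had every W464A/W465A library below every W465A library, against 17.3% of all tiles.

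Other trophoblast genes were compared as 1 list of 20, of which 16 had a tested promoter. Of these 16, 5 were called lower in W465A (31.2%, against 27.3% of all promoters) and 5 in W464A/W465A (31.2% against 29.1%). In the triple mutant 4 were (25% against 29.3%) and in W465A/W796A 1 (6.25% against 6.6%), so these shares lay near the background, and none was called higher. Among the promoters with the highest WT levels, Plet1, a trophoblast surface marker, held 56.0% ± 12.1 in WT and 14.9% ± 6.03 in W465A (adjusted p = 0.0024) on only 3 CpGs. Krt7 and Krt8, keratins of trophoblast epithelium, held 31.1% ± 10.3 and 24.0% ± 7.72 in WT and 13.0% ± 3.40 and 12% ± 2.91 in W465A (adjusted p = 0.00494 and 0.0354). Esx1, an X-linked homeobox gene of the placenta, held 21.5% ± 0.696 in WT, 5.86% ± 2.47 in W465A (adjusted p = 0.00049) and 7.54% ± 3.45 in W465A/W796A (lower than WT, adjusted p = 0.0208). At the other end, Sox21 and Ascl2 were at 0.0282% and 1.10% in WT. The pluripotency promoters Pou5f1, Nanog and Sox2 averaged 3.24%, 4.67% and 0.209% in WT. None was called in any comparison, and at these levels a loss of 10 points is not possible. WT replicate 2 was the highest WT library at Pou5f1 (6.60%) and Nanog (8.86%). The bodies of Pou5f1 and Nanog were called lower in W465A, W464A/W465A and the triple mutant, as were 95.3%, 96.1% and 96.2% of all gene bodies. The WT libraries stood at 8.33%, 44.2% and 1.32% in the Pou5f1 body.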

How the data were processed

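Methylated and total read counts per CpG were deposited by the authors for 18 libraries of enhanced reduced representation bisulfite sequencing. The submitters' processing notes name cutadapt 1.2.1, Bismark 0.18.1 and Bowtie 1.2. Removal of duplicate reads is not given in the sources used here, and PCR reads are not independent molecules, so intervals and limits cover counting error only. CpGs with at least 1 read in all libraries were summed into 1 kb tiles, promoters (500 bp either side of a start) and gene bodies with at least 3 such CpGs. Each feature was fitted over all 18 libraries with a quasi-binomial logistic model, its overdispersion squeezed toward a common value, with an F test on the pooled group levels and Benjamini-Hochberg adjustment over all features of a kind (Python 3.11.15, scipy 1.17.1). A call needed an adjusted p under 0.05 and at least 10 points. The procedure was tested on simulated data. Alternatives used limma 3.58.1 and edgeR 4.0.16 (R 4.3.3), higher read minimums, other windows and leaving out each library. The named tiles were those over a promoter, with the highest WT level and with the largest W464A/W465A difference. The members and gene lists were chosen with earlier results of these data known. Positions and sequences are from GRCm38 and genes from GENCODE M21.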

Additional observations from a re-analysis of the deposited data

Results flagged for a closer look

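In the Elf5 upstream flank (12 CpGs, 63 to 201 reads per library) the effect of adding W796A went in opposite directions on the W465A and W464A/W465A backgrounds. This was the only part found when the promoter, body and flanks of all 5 genes were searched for such a reversal. The mean was 22.7 points higher in W465A/W796A (55.1%, 49.2% and 60.2%) than in W465A (40.3%, 28.3% and 27.6%). It differed by -10.0 points between W464A/W465A/W796A (23.4%, 25% and 14.3%) and W464A/W465A (26.8%, 35.3% and 30.6%). In each pair the libraries did not overlap, which held in the same direction for 47.5% and 5.14% of all tiles. On the WT background the W796A libraries (72.7%, 91.2% and 90.1%) overlapped WT (72.2%, 82.1% and 76.2%). The difference between the 2 effects was not tested.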

How the results depend on the processing

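Depth limits Elf5 most: 23 of its 162 CpGs had at least 5 reads in every library, against 87 to 145 CpGs at the other genes. The counts that follow are for the tiles of all 5 genes together. With a minimum of 5 reads per CpG and library, 16 were called lower in W465A, 20 in W464A/W465A, 18 in the triple mutant and 8 in W465A/W796A. Between W465A/W796A and W465A 4 were called. At 10 reads these counts were 6, 6, 6, 5 and 1. With edgeR at 5 reads they were 16, 20, 18, 2 and 2. For the last comparison limma called 0, no squeezing 2 and a fit of only the groups compared 21. For W465A/W796A against WT limma called 4 and a 25-point minimum 9. Fewer tiles were tested at higher minimums, so the lower counts there are not lost calls alone. The share of all tiles called was not counted at any alternative setting, leaving out single libraries included. These counts therefore have no background beside them. The cause of the other changes was not tested.

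The Elf5 promoter call in W465A was lost at -22.8 points with limma or a 25-point minimum and at -29.0 with 5 reads, edgeR or the 5′ end only. In W464A/W465A it was lost with limma (-25.5). Its W465A/W796A difference turned to 1.87 with 5 reads, edgeR or the 5′ end only, and that of W796A to 3.00 with promoters of 1000 bp. With 1 library left out, the Elf5 promoter ranged from -27.5 to -9.07 in W465A, -30.3 to -11.8 in W464A/W465A, -37.7 to -19.2 in the triple mutant, -9.50 to 8.96 in W465A/W796A and -15.9 to 10.8 in W796A. Tile counts then ranged from 45 to 65 in W465A, 56 to 68 in W464A/W465A, 59 to 69 in the triple mutant, 0 to 33 in W465A/W796A, 0 to 2 in W796A and 0 to 21 for W465A/W796A against W465A.

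Among uncalled values, Cdx2 body, W465A/W796A vs W465A, turned to -0.521 with 5 reads or edgeR and -1.79 with 10 reads, and ranged from -0.186 to 1.18 without 1 library. Hand1 body, W465A/W796A vs W465A, turned to -6.76 with 10 reads. Elf5_t103411, W465A/W796A vs WT (the tile at chr2:103411001-103412000), turned to 1.87 with 5 reads or edgeR and ranged from -18.9 to 4 without 1 library. Eomes_t118483, W465A/W796A vs WT (chr9:118483001-118484000), then ranged from -9.83 to 1.65. Eomes body, W796A vs WT, turned to 0.523 with 10 reads and ranged from -3.01 to 8.07. Tfap2c body, W796A vs WT, turned to -0.975 with 5 reads or edgeR and -1.11 with 10 reads, and ranged from -3.79 to 5.80. Elf5 body, W796A vs WT, ranged from -3.18 to 8.19.

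By a cutoff of 0.1, replicate numbers did not pair the libraries: in none of 15 pairs of groups did every same-numbered pair correlate above it. Between WT and W796A, however, same-numbered libraries correlated at 0.0538 to 0.0824, above the highest value of other pairs, 0.0241. A weak pairing of these groups is therefore not excluded. With the replicate number as a block, 62, 66, 66 and 12 tiles were called lower in W465A, W464A/W465A, the triple mutant and W465A/W796A, 14 differed between W465A/W796A and W465A, and 0 were called in the other comparisons. The shares of all tiles called with this block were not counted.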
